A study of Mus musculus with 9 samples.

Results

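RNA was compared between cocaine-taking and drug-naive male C57BL/6 mice in cells sorted as cholinergic interneurons from the nucleus accumbens. The cocaine-taking side was every library with a RES or SUS title, 6 in all, and the drug-naive side was the 3 libraries with a WT title, so the comparison used 9 of the 9 libraries. It covered every Ensembl gene of the count table: 39210 of 52636 genes had enough counts to be tested. Cocaine-taking mice worked for intravenous cocaine at 1.2 mg/kg per infusion, first under a fixed ratio 1 schedule capped at 40 infusions and then under progressive ratio sessions of 23 h on 10 successive days. The accumbens was collected on day 3 of abstinence. Mice were perfused with cold PBS, punches from 2 to 3 mice of a condition were pooled and digested with papain, and cells stained with a fluorescent antibody to ChAT were sorted. Whether libraries that share a title stem from separate pools is not stated, so p-values measure only the spread between libraries, which may be technical. The drug-naive libraries carry the genotype entry WT, and no surgery or sham training is given for them in the labels. The labels are at odds over RES and SUS: the behavioural entry calls the RES libraries susceptible to cocaine addiction and the SUS libraries resilient, so RES and SUS are used here only as title names. The pooled comparison does not need that distinction.

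Cholinergic interneurons are sparse, tonically active neurons of the striatum that release acetylcholine onto the far more numerous medium spiny neurons. Cocaine blocks the dopamine transporter and so raises dopamine, which acts on these neurons through D2 and D5 type receptors, and repeated intake is known to change immediate early genes, neuropeptides and synaptic genes in the accumbens of rodents. A contrast of all cocaine-taking mice with drug-naive mice asks what the cocaine-taking mice share, whichever title their library has. Cocaine itself cannot be told apart in it from the intravenous access and sessions that came with it.

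Library depth ran from 4574518 to 11155730 counts in the 6 cocaine-taking libraries and from 4471675 to 10667056 in the 3 drug-naive ones. Mitochondrial genes took 9.09% to 28.7% of counts (median 16.8%) in cocaine-taking libraries, against 17.1% to 27.0% in drug-naive libraries. Of 6 such library measures, 0 passed a test of the difference between groups (two-sided exact permutation test over 84 splits, p between 0.536 and 0.988, Benjamini-Hochberg adjusted 0.986 to 0.988). As a yardstick for stray reads, levels were also expressed relative to the count density (counts per exonic kb) of 1092 olfactory receptor genes, called background below. On that scale the labelled cell type was not apparent in list medians. The median of 11 cholinergic markers was 0.949 to 1.90 times background in cocaine-taking libraries and 1.43 to 1.54 times in drug-naive libraries. Of the 11, 0 averaged 3 times background over all libraries, although Chat, the gene for ChAT, reached 7.87 times in SUS 2. Markers of cortical glutamatergic neurons, which are not accumbens cells, had medians in a like range, 1.17 to 1.57 times in cocaine-taking and 1.40 to 1.66 times in drug-naive libraries. By contrast 17 of 19 medium spiny neuron markers, 11 of 13 astrocyte markers and 18 of 18 microglia markers averaged at least 3 times background. The yardstick itself matters: against the lower density of 293 vomeronasal receptor genes, 11 of 11 cholinergic markers but also 9 of 11 cortical glutamatergic markers and 18879 of 20616 protein-coding genes passed the same line. Below, "expressed" means at least 3 times the olfactory receptor density.

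No gene passed the test between cocaine-taking and drug-naive libraries. In edgeR's quasi-likelihood test 0 of 39210 genes (0%) had a Benjamini-Hochberg adjusted p under 0.05, and the smallest adjusted p was 1.00. At an unadjusted p under 0.05 there were 541 genes (1.38%), of which 353 were higher (0.9%) and 188 lower (0.479%) in cocaine-taking libraries. That share of 1.38% was below what a threshold of 0.05 passes where nothing differs. DESeq2 also called 0 genes, with 484 at an unadjusted p under 0.05, and limma-voom with sample weights called 0, with 1697, of which 727 were higher. Without RES 3 and SUS 3 together, 468 of 1049 were higher, so the balance of higher over lower turned under both of these alternatives. The unadjusted count was 860 without RES 3, and lay between 392 and 766 when any other library was left out.

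The fold changes were small beside their errors. Among 5735 expressed protein-coding nuclear genes, the median absolute log2 fold change was 0.116, 90% of genes lay within 0.304, and the median SE was 0.294. The median SD of log2 levels within the groups was 0.431. The 95% interval of the log2 fold change lay within -1 to 1 for 4548 of these genes (79.3%), and for 25584 of all 39210 genes (65.2%). For most expressed genes a 2-fold difference in either direction was therefore outside the interval, and smaller differences were often not detectable with these libraries. Of the 5735 expressed genes, 3505 had a log2 fold change below 0 (61.1%), with a median of -0.05. That median was -0.16 without naive 1, but 0.07 without naive 2 and 0.03 without RES 3 and SUS 3 together. Its sign thus turned when libraries of either side were left out.

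**Figure D1:**
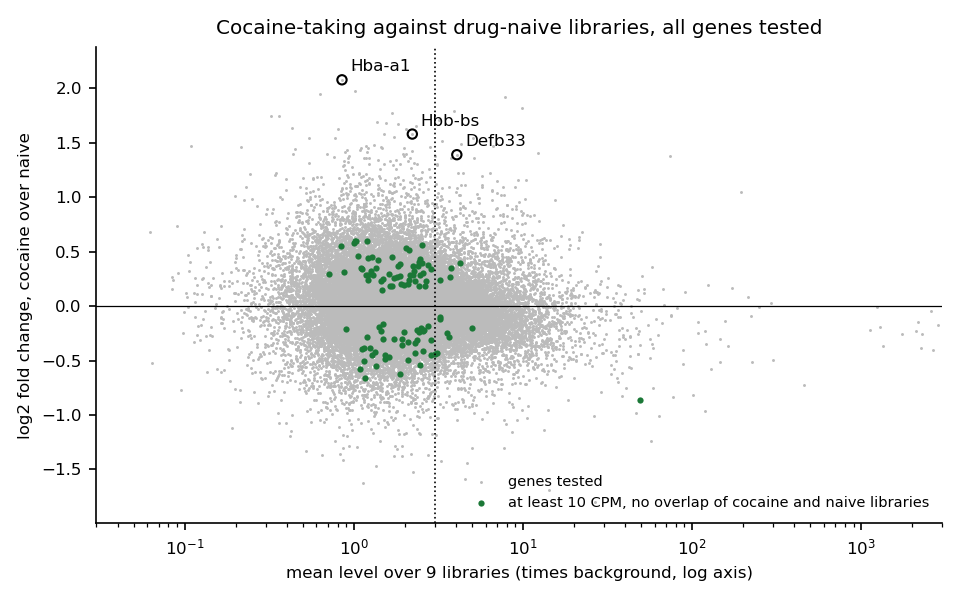
Log2 fold change of cocaine-taking over drug-naive libraries against mean level over all 9 libraries (times background, log axis); each grey point is one of the genes tested and the dotted line marks 3 times background. Green points are the 104 genes of at least 10 CPM whose 6 cocaine-taking libraries all lie on one side of the 3 drug-naive ones; 58 are above 0 and 46 below, and most lie left of the dotted line. Circled are 3 genes described in the text.

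Among the 725 distinct genes tested in 40 lists for cell types and functions, the largest pooled fold changes belonged to an alpha globin and an adult beta globin, the subunits of haemoglobin in red blood cells. Both sat at few counts. Because their promoters are textbook models of red cell gene control, the 250 bases before the start of each gene are shown, from the RefSeq promoter table on GRCm38.p6. Hbb-bs lies on the minus strand with its window at chr7:103827929-103828178, and Hba-a1 on the plus strand with its window at chr11:32283422-32283671. Capitals mark matches to GATAAG (a core recognised by red cell factors of the GATA family), CACCC (a box bound by Krüppel-like factors), CCAAT (a box named for its letters) and ATATAA (a sequence like the core promoter's TATA box), each searched on both strands; no matches overlap. GENCODE M21 places the outermost start of both genes inside these windows.
Hbb-bs: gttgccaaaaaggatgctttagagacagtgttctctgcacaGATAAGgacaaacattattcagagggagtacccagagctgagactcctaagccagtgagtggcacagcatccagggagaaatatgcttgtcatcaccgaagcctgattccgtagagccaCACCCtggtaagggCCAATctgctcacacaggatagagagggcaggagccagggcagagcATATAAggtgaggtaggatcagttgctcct
Hba-a1: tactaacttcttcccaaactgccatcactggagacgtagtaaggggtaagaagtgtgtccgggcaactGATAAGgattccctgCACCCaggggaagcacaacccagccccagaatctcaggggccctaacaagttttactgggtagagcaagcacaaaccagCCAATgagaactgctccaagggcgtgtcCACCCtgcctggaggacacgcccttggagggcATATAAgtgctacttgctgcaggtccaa
Both windows hold the same motifs in the same order towards the start: GATAAG at 209 and 182 bases before the start in Hbb-bs and Hba-a1, CACCC at 90 bases in Hbb-bs and at 167 and 60 in Hba-a1, CCAAT at 76 and 88, and ATATAA at 30 and 28, apart from the second CACCC of Hba-a1, which follows its CCAAT. Among 32851 promoters of the same length in that table, 6.55% held GATAAG, 52.0% CACCC, 33.8% CCAAT and 9.10% ATATAA. These matches describe the letters only.

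Hbb-bs (ENSMUSG00000052305, chr7:103826534-103828096, GRCm38) had a lowest level of 2.36, a median of 4.29 and a highest of 7.38 CPM (counts scaled by TMM to a common library size) in the 6 cocaine-taking libraries, against 1.47, 1.51 and 1.57 CPM in the 3 drug-naive libraries. All 6 cocaine-taking libraries were above all 3 drug-naive ones, and the 3 SUS libraries were above the 3 RES libraries. In raw counts the RES libraries held 18, 11 and 23 and the SUS libraries 52, 49 and 61, against 11, 5 and 17 in drug-naive libraries. The log2 fold change was 1.58 (SE 0.406, 95% interval 0.71 to 2.45, unadjusted p = 0.00146 in edgeR), but the Benjamini-Hochberg adjusted p was 1.00. It ranged from 1.40 to 1.70 when 1 library was left out. Set against the same drug-naive libraries, RES stood at 0.90 (SE 0.360) and SUS at 2.00 (SE 0.336). The difference of SUS from RES was 1.10 with an unadjusted p of 0.00318 and an edgeR adjusted p of 0.870. On the background scale Hbb-bs averaged 2.82 times in cocaine-taking and 0.996 times in drug-naive libraries.

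Hba-a1 (chr11:32283511-32284465) had a lowest level of 0.644, a median of 1.32 and a highest of 5.09 CPM in cocaine-taking libraries, against 0.400, 0.302 and 0.555 CPM in drug-naive libraries. The groups again did not overlap, but 1 library, SUS 1, was far above the rest with 47 counts, while the other cocaine-taking libraries held 3 to 11 and the drug-naive ones 3, 1 and 6. Its log2 fold change was 2.08 (SE 0.701, unadjusted p = 0.00968, adjusted p = 1.00, edgeR), with RES at 1.51 and SUS at 2.44. Its mean over all libraries was 0.849 times background. Other red blood cell genes did not share the pattern. Hbb-bt, the second adult beta globin, had a lowest level of 0.644, a median of 1.48 and a highest of 2.34 CPM in cocaine-taking libraries, against 2.00, 0.907 and 1.48 CPM in drug-naive libraries, a log2 fold change of 0.03 (SE 0.479). Alas2, which begins haem synthesis in red cell precursors, stood at 0.23 (SE 0.323), and Slc4a1, the anion exchanger of the red cell membrane, at -0.18 (SE 0.202); both overlapped between groups. Summed over the red blood cell list, levels were 31.8 to 49.6 CPM in cocaine-taking and 30.8 to 41.8 CPM in drug-naive libraries. The globins are also hard to count: of the 50-base stretches of their transcripts, 53.2% of those of Hbb-bs also occur in Hbb-bt and 72.3% of those of Hba-a1 in Hba-a2, which had too few counts to test. How the counting split such reads is not given in the sources used here. In such a bulk sort, fewer cells of a type and less RNA per cell cannot be told apart, and whether residual blood had a part in these values was not tested.

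**Figure D2:**
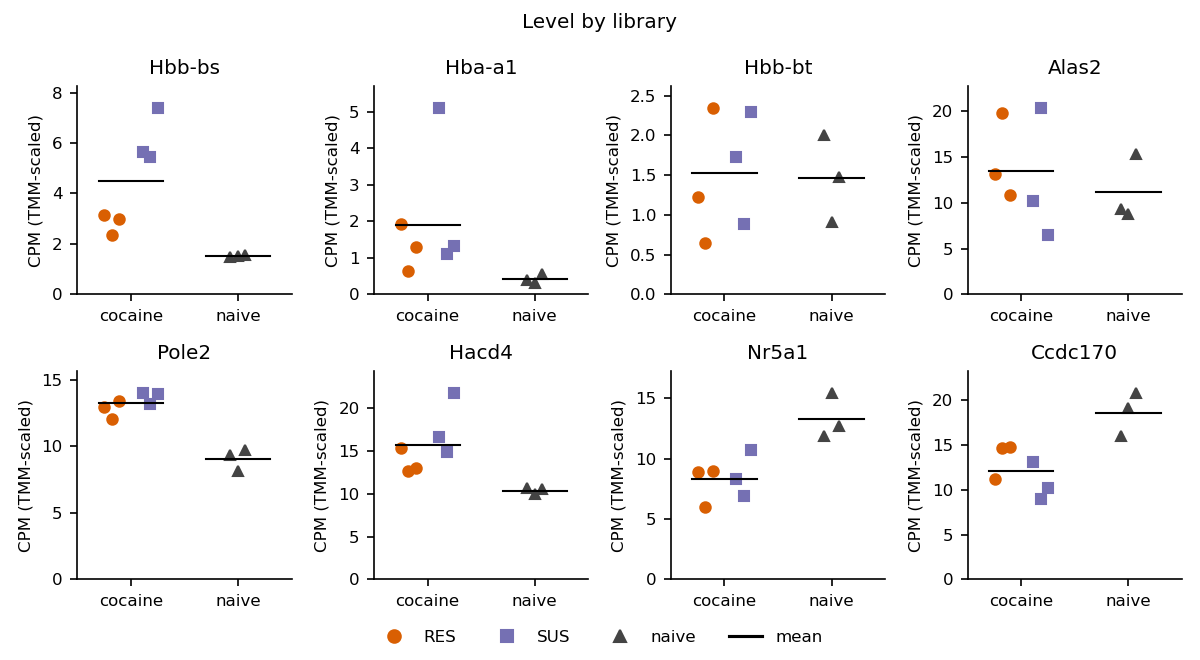
Level of 8 genes in each library (TMM-scaled CPM, linear axis from 0), cocaine-taking libraries on the left (RES circles, SUS squares) and drug-naive libraries on the right (triangles); bars are group means. Hbb-bs, Hba-a1, Pole2 and Hacd4 are higher and Nr5a1 and Ccdc170 lower in every cocaine-taking library, whereas Hbb-bt and Alas2 overlap.

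Beyond the globins, a gene was looked for that was clearly present and separated the groups without overlap. Of 14982 genes of at least 10 CPM in the mean of either group, 58 were higher in all 6 cocaine-taking libraries than in any drug-naive library (0.387%) and 46 were lower (0.307%). Few of them were expressed above background: 4 of the 58 and 8 of the 46 reached 3 times background, against 5697 of the 14982. Their median levels were 1.85 and 2.03 times background, against 2.51 times for all genes of at least 10 CPM. The separated genes thus sat mostly in the range where levels are close to those of olfactory receptor genes, as the scatter of fold change against level shows. With 1 library left out, separated genes numbered between 153 (without SUS 2) and 517 (without naive 1), since fewer libraries have to be separated.

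Among those higher in cocaine-taking libraries, Pole2, a subunit of the DNA polymerase epsilon that replicates the leading strand, had a lowest level of 12.0, a median of 13.3 and a highest of 14.0 CPM in cocaine-taking libraries, against 9.34, 8.16 and 9.72 CPM in drug-naive libraries. The log2 fold change was 0.53 (SE 0.171, unadjusted p = 0.00685 in edgeR, adjusted p = 1.00), and the lack of overlap follows from how these genes were chosen. Hacd4, an enzyme of very long chain fatty acid elongation, had a lowest level of 12.7, a median of 15.1 and a highest of 21.8 CPM in cocaine-taking libraries, against 10.7, 9.97 and 10.5 CPM in drug-naive libraries. Its log2 fold change was 0.60 (SE 0.207), at 1.01 times background. Osgepl1, a mitochondrial tRNA-modifying enzyme, stood at 0.55, Ffar1, a receptor for free fatty acids, at 0.60, Nrg4, an ErbB4 ligand of the neuregulin family, at 0.45, Ifi44, an interferon-induced gene, at 0.46, Parl, a rhomboid protease of the inner mitochondrial membrane, at 0.43, and Wdr61, a subunit of the PAF1 and SKI complexes, at 0.37. Skint4 and Skint6, skin and thymus genes of the butyrophilin-like family, stood at 0.59 and 0.51. RES and SUS values were of one sign for each of these genes: for Pole2 0.48 and 0.58, for Hacd4 0.39 and 0.77, for Nrg4 0.47 and 0.43. RES and SUS are set against the same drug-naive libraries, and the choice of separated genes fixes this sign. Between 0 and 8.16% of the 50-base stretches of these 10 transcripts occur in another gene, with Pole2 the highest.

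Among those lower in cocaine-taking libraries, Nr5a1, the nuclear receptor SF-1 of adrenal, gonad and hypothalamus, had a lowest level of 6.01, a median of 8.64 and a highest of 10.8 CPM in cocaine-taking libraries, against 11.9, 15.4 and 12.7 CPM in drug-naive libraries. The log2 fold change was -0.66 (SE 0.204, unadjusted p = 0.00575 in edgeR, adjusted p = 1.00), at 1.16 times background. Ccdc170, a coiled-coil protein of the microtubule network, had a lowest level of 8.98, a median of 12.2 and a highest of 14.7 CPM in cocaine-taking libraries, against 16.0, 19.0 and 20.7 CPM in drug-naive libraries. Its log2 fold change was -0.62 (SE 0.200). The others were Samd11 at -0.58, Calml4, a calmodulin-like protein, at -0.55, Tex45 at -0.54, S1pr3, a receptor for sphingosine 1-phosphate, at -0.46, Ebf4, a transcription factor of the early B cell factor family, at -0.45, Tlr11, a Toll-like receptor for microbial profilin, at -0.45, Eaf2, an elongation-associated factor, at -0.42, and Npsr1, the neuropeptide S receptor, at -0.39. None of these 10 genes averaged 3 times background, with Ebf4 the highest at 2.87 times.

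Restricted to expressed protein-coding nuclear genes, 5 of 5735 were higher (0.0872%) and 8 lower (0.139%) without overlap, at any CPM. With an unadjusted p under 0.05 there were 7 higher (0.122%) and 8 lower (0.139%). Defb33, an antimicrobial beta defensin, had the smallest p of all 39210 genes. Its lowest level was 3.47, its median 4.25 and its highest 5.96 CPM in cocaine-taking libraries, against 2.13, 0.907 and 1.76 CPM in drug-naive libraries. These are 19 to 46 counts in cocaine-taking libraries and 16, 3 and 19 counts in drug-naive libraries. The transcript is so short that these counts amount to 4.06 times background over all libraries. By side the mean was 5.16 times in cocaine-taking and 1.86 times in drug-naive libraries. Defb33 thus counts as expressed only through its higher side. The log2 fold change was 1.39 (SE 0.326, unadjusted p = 0.000677, adjusted p = 1.00, edgeR), with RES at 1.49 and SUS at 1.29. Another beta defensin, Defb23, stood at -1.28 (SE 0.376), with 1.54 CPM as the median of cocaine-taking libraries, against 3.87, 4.53 and 3.89 CPM in drug-naive libraries.

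Other separated genes above the line had smaller fold changes. Phyh, the peroxisomal enzyme of phytanic acid breakdown, had a lowest level of 14.4, a median of 16.5 and a highest of 25.0 CPM in cocaine-taking libraries, against 14.3, 12.7 and 13.4 CPM in drug-naive libraries (log2 fold change 0.40, SE 0.206). Lrrc42 stood at 0.35 and Tcea2, a transcription elongation factor, at 0.26. On the lower side Kif7, a kinesin of the Hedgehog pathway, had a lowest level of 15.4, a median of 25.8 and a highest of 30.3 CPM in cocaine-taking libraries, against 31.5, 38.4 and 30.5 CPM in drug-naive libraries (log2 fold change -0.44, SE 0.222). The gap between the nearest libraries was narrow for both Phyh and Kif7. Mup4, a major urinary protein, stood at -0.47, with 12.4% of its 50-base stretches shared with other genes. Pdcd2l stood at -0.43, Col7a1, the collagen of anchoring fibrils, at -0.29, Pomk, a kinase that modifies dystroglycan, at -0.25, Chd1l, a chromatin remodeller, at -0.20, and Zfp454, a zinc finger gene, at -0.10. Kif7 averaged 2.66 times background in cocaine-taking and 3.70 times in drug-naive libraries, and Pdcd2l 2.78 and 3.77 times. Both thus count as expressed only through the drug-naive side.

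For the 11 genes that mark the sorted cell type, the 95% interval of the log2 fold change included 0. Chat, the enzyme that makes acetylcholine, had a lowest level of 9.31, a median of 17.3 and a highest of 73.5 CPM in cocaine-taking libraries, against 16.8, 13.3 and 17.8 CPM in drug-naive libraries. The highest value was SUS 2 alone, and the other 5 cocaine-taking libraries lay between 9.31 and 20.3 CPM, across the drug-naive range. The log2 fold change was 0.64 (SE 0.528, 95% interval -0.49 to 1.76) and was -0.10 without SUS 2. Slc18a3, the vesicular acetylcholine transporter, lies within the Chat locus, so their reads may not be separable; it stood at 0.44 (SE 0.483) with SUS 2 again the highest library. Slc5a7, the choline transporter, stood at 0.09 (SE 0.197). Over the 11 cholinergic markers the median log2 fold change was 0.04, with 6 above 0 and 5 below, beside 0.01 over all genes tested, and summed levels were 114 to 200 CPM in cocaine-taking and 116 to 141 CPM in drug-naive libraries.

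For acetylcholine and dopamine receptors the 95% intervals likewise included 0. Chrm2, the inhibitory muscarinic autoreceptor of cholinergic neurons, had a lowest level of 9.24, a median of 12.7 and a highest of 15.1 CPM in cocaine-taking libraries, against 10.9, 8.16 and 8.79 CPM in drug-naive libraries. In 5 of 6 cocaine-taking libraries it was above the highest drug-naive value, and its log2 fold change was 0.42 (SE 0.204, unadjusted p = 0.0563, edgeR adjusted p = 1.00) at 0.919 times background. Over 15 receptor and breakdown genes for acetylcholine the median was -0.03. Drd2, the D2 dopamine receptor of indirect-pathway and cholinergic neurons, had a lowest level of 16.9, a median of 30.3 and a highest of 49.8 CPM in cocaine-taking libraries, against 27.3, 44.7 and 38.3 CPM in drug-naive libraries (log2 fold change -0.15, SE 0.327). Drd1, the receptor of direct-pathway neurons, stood at 0.18 (SE 0.401), Drd3 at 0.33 (SE 0.240), Drd5 at 0.56 (SE 0.525) and 0.265 times background, and Th, which makes the dopamine precursor, at 0.37 (SE 0.206). The groups overlapped for all of them. Of 11 genes of dopamine reception, synthesis and breakdown, 9 were above 0 and 2 below, with a median of 0.20 that lay between 0.11 and 0.31 when 1 library was left out, yet 0 of the 11 had an unadjusted p under 0.05 and only 2 were expressed above 3 times background.

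Peptide, opioid receptor and signalling genes also had 95% intervals that included 0 for the genes named next. Penk, the enkephalin precursor of indirect-pathway neurons, had a lowest level of 53.8, a median of 121 and a highest of 161 CPM in cocaine-taking libraries, against 103, 210 and 100 CPM in drug-naive libraries (log2 fold change -0.30, SE 0.389). Cartpt, a peptide gene named for its regulation by cocaine and amphetamine in rats, had a lowest level of 6.49, a median of 7.74 and a highest of 11.8 CPM in cocaine-taking libraries, against 8.14, 5.14 and 9.90 CPM in drug-naive libraries (log2 fold change 0.10, SE 0.262). For Penk, 3 of 6 cocaine-taking libraries were below every drug-naive one and naive 2 was above all of them. For Cartpt, 2 of 6 were above every drug-naive library and naive 2 was below all of them, so the groups overlapped in part for both genes. Npy stood at 0.32, Oprd1, the delta opioid receptor, at -0.34, Ppp1r1b, the phosphatase inhibitor DARPP-32, at -0.10 (SE 0.415), Bdnf, a neurotrophin, at -0.12 (SE 0.210), and S100a10, the annexin partner p11, at 0.11 (SE 0.371). The 95% interval was within -1 to 1 for each of these 5 genes.

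**Figure D3:**
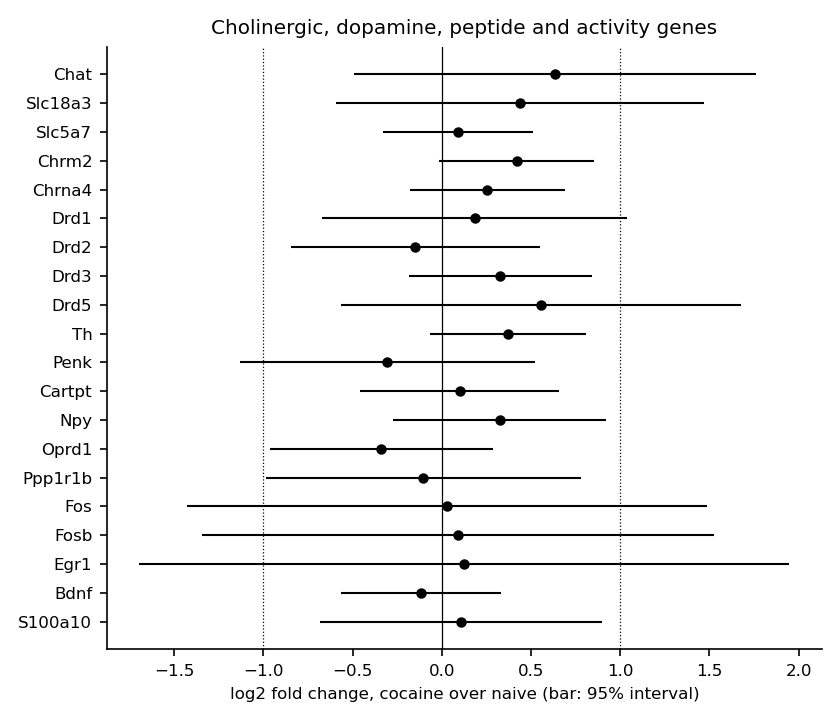
Log2 fold change of cocaine-taking over drug-naive libraries (point) with its 95% interval (bar) for 20 cholinergic, dopamine, peptide and activity genes; dotted lines mark -1 and 1. Every interval includes 0, and those of Fos, Fosb and Egr1 are the widest.

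Immediate early genes are switched on in neurons and glia within minutes of stimulation. Fos, Fosb and Egr1 had pooled fold changes near 0 made of opposite parts, whereas Egr4 stood at -0.29 with RES at -0.23 and SUS at -0.35. Fos had a lowest level of 17.6, a median of 49.3 and a highest of 229 CPM in cocaine-taking libraries, against 63.5, 144 and 35.7 CPM in drug-naive libraries. The range within the cocaine-taking side exceeded any difference between the sides, with a log2 fold change of 0.03 (SE 0.684). Against the same drug-naive libraries RES stood at -1.08 (SE 0.677) and SUS at 0.65 (SE 0.667). Not every SUS library was high: SUS 2 held 27.7 CPM of Fos, inside the RES range of 17.6 to 70.8 CPM. Fosb, whose stable product is a known mark of repeated cocaine in the accumbens, stood at 0.09 (SE 0.672), with RES at -1.08 and SUS at 0.73, and Egr1 at 0.13 (SE 0.855), with RES at -1.33 and SUS at 0.84. The difference of SUS from RES was 1.73 for Fos (unadjusted p = 0.0233), 1.81 for Fosb (0.0143) and 2.17 for Egr1 (0.0254), each with an edgeR adjusted p of 0.870. Over 27 immediate early genes the pooled median was -0.04, the RES median -0.84 and the SUS median 0.48, and 0 of 27 had an unadjusted p under 0.05 in the pooled comparison.

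Opposite RES and SUS values were seen in many groups of genes. Of the 40 gene lists, 18 had a pooled median log2 fold change above 0 and 22 below, in a range of -0.22 to 0.23, and 23 had RES and SUS medians on opposite sides of 0. Of their 725 genes, 5 (0.690%, beside 1.38% of all genes tested) had an unadjusted p under 0.05 and 0 an adjusted one. They were Hbb-bs, Hba-a1, the interferon-induced genes Ifi44 and Ifi35, and Ndufs6, a subunit of respiratory complex I. Ndufs6 had a lowest level of 2.99, a median of 5.86 and a highest of 7.98 CPM in cocaine-taking libraries, against 2.67, 3.32 and 2.31 CPM in drug-naive libraries. Of the 6 cocaine-taking libraries, 5 were above every drug-naive one, and the log2 fold change was 1.05 (SE 0.327, unadjusted p = 0.00585, adjusted p = 1.00, edgeR). The 77 nuclear genes of oxidative phosphorylation, Ndufs6 among them, had a median of 0.01. Uqcrfs1, the Rieske protein of complex III, stood at -0.60 (SE 0.295). Ifi35 stood at 0.93 (SE 0.421) on 6 to 45 counts in cocaine-taking libraries, against 13, 5 and 18 counts in drug-naive libraries.

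**Figure D4:**
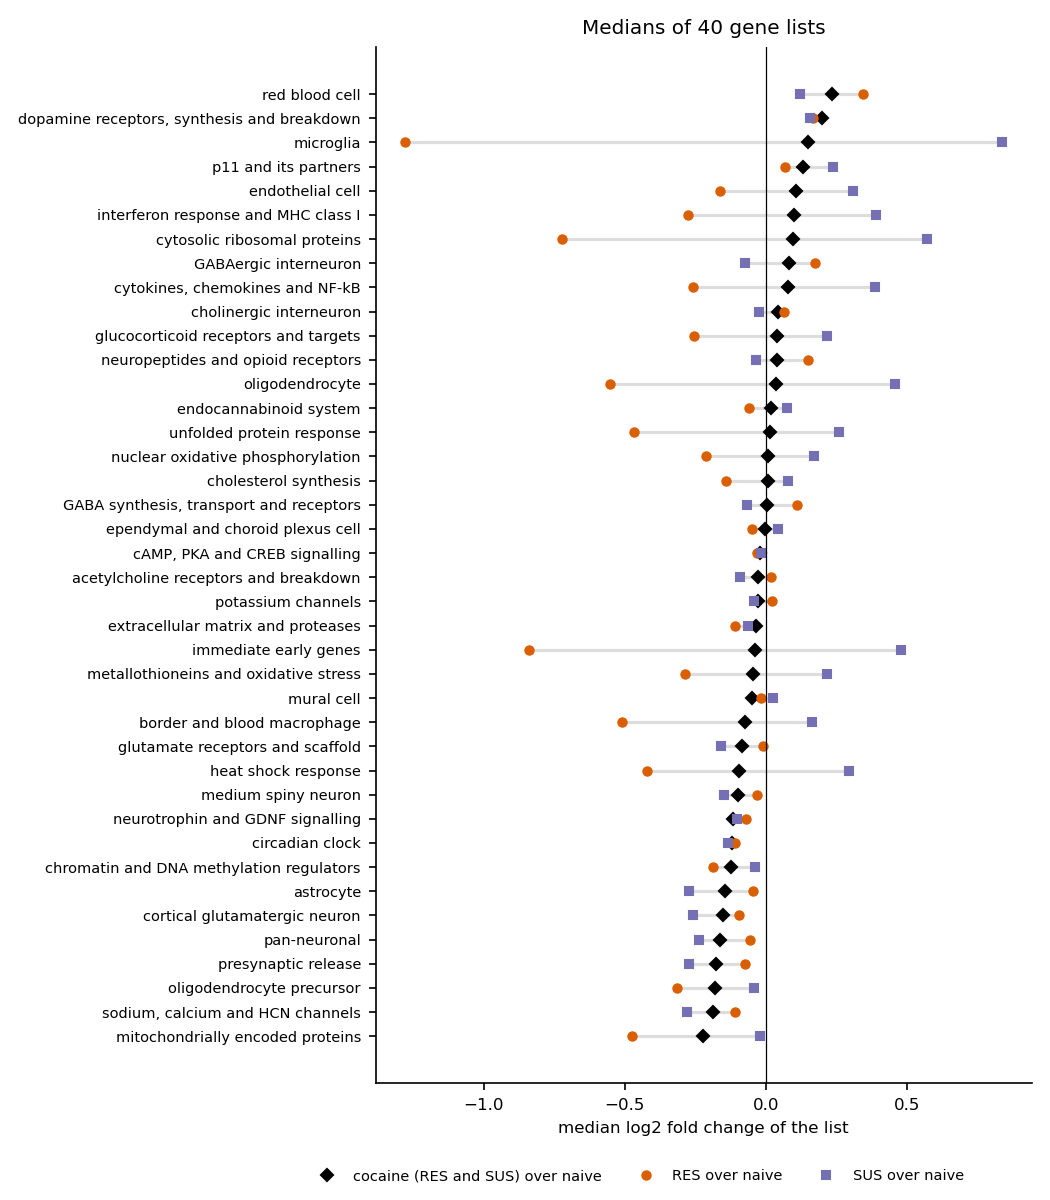
Median log2 fold change of 40 gene lists against the 3 drug-naive libraries, for all cocaine-taking libraries (black diamonds), RES (orange circles) and SUS (purple squares), sorted by the pooled median. Pooled medians stay between -0.22 and 0.23, while the RES and SUS medians of the microglia, immediate early and ribosomal protein lists lie on opposite sides of 0.

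Microglia genes gave the widest split. All 18 had a pooled log2 fold change above 0, with a median of 0.15, while the RES median was -1.28 and the SUS median 0.84. The list's level was 13.5, 1.72 and 1.93 times background in RES 1 to 3 and 29.9, 3.07 and 35.9 times in SUS 1 to 3, against 12.1, 25.8 and 3.40 times in the drug-naive libraries. The median of that level was 8.30 times on the cocaine-taking side, below the 12.1 times of the drug-naive side. High and low libraries thus occurred within every title, the groups overlapped, and the sign of the median turned with single libraries: it was -0.43 without SUS 3 and 0.84 without naive 2. Cx3cr1, the fractalkine receptor of microglia, had a lowest level of 11.2, a median of 126 and a highest of 700 CPM in cocaine-taking libraries, against 229, 438 and 25.8 CPM in drug-naive libraries. Its log2 fold change was 0.15 with an SE of 1.09, so that even a 4-fold difference lies inside the interval of -2.17 to 2.46. C1qc, a chain of complement C1q, stood at 0.36 (SE 1.10). The sign of both genes depended on the fit: with the mean of RES and SUS in a model of 3 groups, Cx3cr1 stood at -0.28 and C1qc at -0.13.

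Cytosolic ribosomal protein genes had a pooled median of 0.10, with 60 of 82 above 0, a RES median of -0.72 and a SUS median of 0.57. The sign of the pooled median turned with single libraries: it was -0.33 without SUS 3 and 0.52 without naive 2. It was -0.13 without RES 3 and SUS 3 together. The level of these genes was 7.48, 3.25 and 2.00 times background in RES and 12.3, 3.83 and 15.6 times in SUS libraries, against 6.47, 12.0 and 4.59 times in drug-naive libraries. The median of that level was 5.66 times on the cocaine-taking side and 6.47 times on the drug-naive side. In SUS against RES, where 2227 of 39210 genes (5.68%) had an unadjusted p under 0.05 and 0 an adjusted one (0%), 60 of the 82 did, as did 13 of 27 immediate early genes and 12 of 18 microglia genes. Oligodendrocyte genes (pooled 0.04, RES -0.55, SUS 0.46), the heat shock response (-0.10, -0.42 and 0.30), the unfolded protein response (0.01, -0.47 and 0.26), cytokines and chemokines (0.08, -0.26 and 0.39) and the interferon response (0.10, -0.27 and 0.39) were split in the same direction. SUS 1 and SUS 3, the cocaine-taking libraries with the highest microglia levels, were also the 2 highest of the 6 in each of these lists by median level in times background; by mean log2 level RES 1 was above SUS 3 for oligodendrocyte genes (5.47 against 5.40). The part of cell makeup in these values was not tested.

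**Figure D5:**
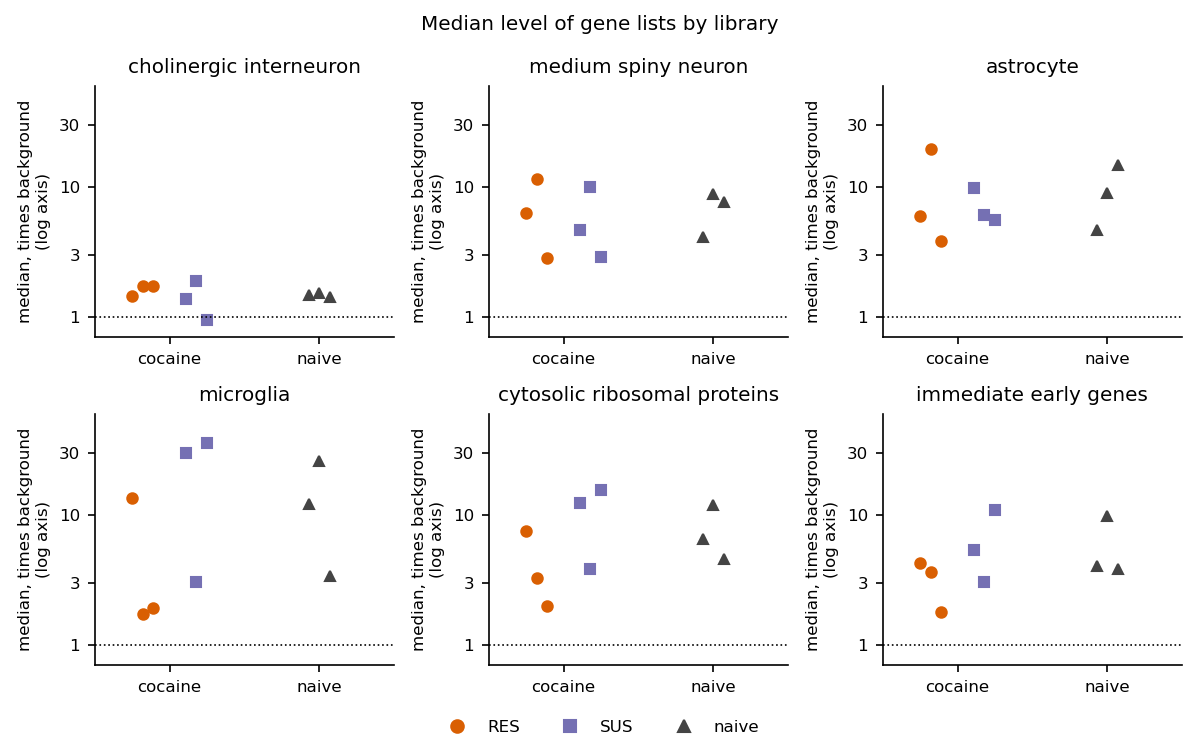
Median level of 6 gene lists in each library, in times background on a log axis, with cocaine-taking libraries on the left (RES circles, SUS squares) and drug-naive libraries on the right (triangles); the dotted line marks background. The median of the cholinergic markers stays between 0.949 and 1.90 times in every library, whereas that of the microglia markers runs from 1.72 to 35.9 times within the cocaine-taking libraries alone.

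Astrocyte genes and some neuronal lists had RES and SUS medians on the same side, below 0. All 13 astrocyte genes were below 0 (median -0.15, RES -0.05, SUS -0.27), as were 15 of 19 genes of presynaptic release (-0.18), 16 of 19 sodium, calcium and HCN channel genes (-0.19), 11 of 13 general neuronal genes (-0.16) and 23 of 28 chromatin regulators (-0.13). No gene of these 5 lists had an unadjusted p under 0.05. Other neuronal lists did not lean: 4 of 8 GABAergic interneuron genes were below 0 (median 0.08, RES 0.18, SUS -0.07), as were 9 of 19 genes of GABA synthesis, transport and receptors (0.0043), 11 of 21 potassium channel genes (-0.03), 5 of 11 cholinergic markers and 6 of 13 neuropeptide and opioid receptor genes (0.04), and each of these 5 lists had RES and SUS medians on opposite sides of 0. The share of genes below 0 is to be read beside the 61.1% of all expressed genes. Nefm, a neurofilament subunit, had a lowest level of 22.0, a median of 46.0 and a highest of 63.3 CPM in cocaine-taking libraries, against 64.5, 86.7 and 51.6 CPM in drug-naive libraries (log2 fold change -0.55, SE 0.304). Stx1a, a SNARE protein of transmitter release, stood at -0.52 (SE 0.302), Cacna1h, a T-type calcium channel, at -0.45, Hdac4, a histone deacetylase, at -0.40, and Smarca4, the BRG1 remodelling ATPase, at -0.42. Slc1a2, the main glutamate transporter of astrocytes, stood at -0.31 (SE 0.568). The astrocyte median was -0.42 without RES 2 and 0.27 without naive 3.

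RES 3 and SUS 3 were low in medium spiny neuron, general neuronal and presynaptic genes. RES 3 was not low in GABAergic interneuron and cholinergic markers, at 2.91 and 1.72 times background. In both of those lists SUS 3 was the lowest library, at 1.54 and 0.949 times. Medium spiny neuron markers stood at 6.33, 11.5 and 2.83 times background in RES and 4.71, 10.0 and 2.89 times in SUS libraries, against 4.15, 8.87 and 7.65 times in drug-naive libraries. Without RES 3 and SUS 3 the median of medium spiny neuron genes was 0.22, against -0.10 with them, that of general neuronal genes 0.08 and that of presynaptic genes 0.09. Leaving out naive 2 alone also turned the medians of medium spiny neuron genes (0.06) and presynaptic genes (0.0027), while cortical glutamatergic genes stayed at -0.17 without RES 3 and SUS 3. RES 3 also had the largest scaling factor, 1.58, and the largest share of counts at background density, 50.4%, against 25.3% to 35.8% in the other cocaine-taking and 23.8% to 37.3% in drug-naive libraries. Mitochondrially encoded genes had the lowest pooled median of all lists, -0.22, with 12 of 13 below 0; mt-Nd3, a complex I subunit, ran from 8.66 to 186 CPM with a median of 44.9 CPM in cocaine-taking libraries, against 98.8, 192 and 80.2 CPM in drug-naive libraries (log2 fold change -0.96, SE 0.647). That list's median was -0.43 without naive 3 and 0.20 without naive 2.

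Set side by side, RES against drug-naive libraries had 0 called genes (0%) and 361 at an unadjusted p under 0.05 (0.921%), and SUS against the same libraries 0 called genes (0%) and 1225 (3.12%). Pooling the cocaine-taking libraries thus gave 541, between the counts of its parts. The shares of all these comparisons were below what a threshold of 0.05 passes where nothing differs. Among lists whose RES and SUS medians lay on one side were those with the pooled medians farthest from 0: red blood cell genes at 0.23 (RES 0.35, SUS 0.12), mitochondrially encoded genes at -0.22 (RES -0.47, SUS -0.02) and dopamine genes at 0.20 (RES 0.17, SUS 0.16). Also on one side, genes of p11 and its partners had a pooled median of 0.13 with 6 of 7 above 0, among them Htr1b at 0.31 and Htr4 at 0.27, both serotonin receptors that bind p11, and circadian clock genes had -0.12 with Nr1d1, a clock repressor, at -0.48 (SE 0.335). Of the 7 p11 genes, 0 had an unadjusted p under 0.05 in the pooled edgeR test and 0 averaged 3 times background. Over all lists, 9 of 40 kept the sign of the pooled median whichever library was left out, computed on the members tested with all 9 libraries.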

How the data were processed

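The values analysed were raw counts per Ensembl gene in one table deposited by the authors. Per the submitters' processing notes, reads passed through FastQC, STAR 2.5.2b, HTSeq, DESeq and DESeq2 with build GRCm38; the annotation release and strand setting are not given in the sources used here. Symbols, coordinates and exon lengths came from GENCODE M21, which held 52489 of the 52636 IDs. Genes kept by filterByExpr were tested with edgeR 4.0.16 (TMM, quasi-likelihood F test, Benjamini-Hochberg over all genes) in R 4.3.3, with the 6 cocaine-taking against the 3 drug-naive libraries; RES and SUS values came from a model of 3 groups. DESeq2 1.42.0 and limma 3.58.1 were alternatives. The procedure was tested on simulated counts drawn from the same profile for all libraries. Such counts lack the differences in list levels and background share between the real libraries. CPM are TMM-scaled. Replicate numbers were not used as pairs: correlations of deviations for 9 same-number pairs ran from -0.17 to 0.17, with 2 over 0.1. Such correlations cannot exclude that same-numbered libraries were prepared together. Samples, lists and tests were chosen with earlier results of these data known. Named genes were the 10 each way with the smallest p among genes of at least 10 CPM whose groups did not overlap, the same among expressed protein-coding genes, the 2 with the smallest p of each list, and fixed reward genes. Penk, Ppp1r1b, Slc1a2, Cx3cr1, Egr1, Bdnf, Hbb-bt, Alas2, Slc4a1, Defb23, Gabre, Tbc1d25, Ugt2b1 and Nat3 were named after their values were seen. Intervals cover the spread between libraries.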

Additional observations from a re-analysis of the deposited data

Results flagged for a closer look

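Within the 6 cocaine-taking libraries, 177 values (library measures, list means and named genes) were checked for 1 library far from the others, and 8 were past the limit of Dixon's test; chance flags about 1 group in 20. RES 3 stood apart in 4 of them. Its TMM scaling factor was 1.58, with the next at 1.05 and drug-naive libraries at 0.743 to 1.09. Its mean over the chromatin and DNA methylation regulators was 5.32 on the log2(CPM + 1) scale, the lowest, with the next at 5.99. On the same scale it was lowest for the astrocyte connexin gene Gjb6 (2.83, next 3.71) and highest for the matrix protease gene Mmp9 (4.37, next 3.86). SUS 2 was highest for Chat (6.22, next 4.41), SUS 3 was highest for the chemokine gene Cxcl12 (5.52, next 4.95), RES 2 was lowest for the vesicular glutamate transporter gene Slc17a7 (2.08, next 3.26) and SUS 1 was lowest for Zfp454 (3.92, next 4.04).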

How the results depend on the processing

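Genes called in cocaine-taking against drug-naive libraries numbered 0 under all 18 alternatives, as did those of SUS against RES under the 17 run for it. The 541 genes at an unadjusted p under 0.05 became 62 with at least 10 CPM in 3 libraries (fewer genes tested), 1697 in limma-voom, of which 727 were higher, 1049 without RES 3 and SUS 3 together, of which 468 were higher, and 392 to 860 with 1 library left out. The 104 genes without overlap became 57 with at least 3 times background and 1 CPM, and 153 to 517 with 1 library left out. With replicate number as a block 0 genes were called and 514 had an unadjusted p under 0.05. Whether the numbers pair the libraries is not settled. With vomeronasal receptor genes as background, 6.45% to 13.7% of counts were at background; the marker counts on that yardstick were an alternative chosen after seeing the data. Depth limits the globins and Defb33, which held at most 61 counts in a library. The red blood cell median was -0.02 without naive 2, where 6 members were tested. Among named genes, signs turned only for log2 fold changes whose 95% interval included 0. In limma-voom they were -0.0042 for P2ry13, -0.74 for C1qc, -0.0053 for Slc5a7, -0.45 for Fos, -0.63 for Fosb, -0.10 for Cartpt, 0.062 for Ppp1r1b, -0.66 for Cx3cr1, -0.54 for Egr1 and -0.24 for Hbb-bt. With the mean of RES and SUS they were -0.13 for C1qc, -0.22 for Fos, -0.18 for Fosb, -0.28 for Cx3cr1 and -0.25 for Egr1. With the block they were -0.013 for P2ry13, -0.91 for C1qc, -0.29 for Fos, -0.37 for Fosb, -0.96 for Cx3cr1 and -0.40 for Egr1. Without RES 3 and SUS 3 together they were 0.020 for Gjb6, -0.16 for C1qc, 0.012 for Hsf1, -0.032 for Slc5a7, 0.12 for Drd2, -0.38 for Fos, -0.77 for Fosb, 0.0052 for Penk, 0.27 for Ppp1r1b, -0.18 for Cx3cr1 and -0.28 for Egr1. With 1 library left out the range was -0.10 to 0.81 for Chat, -0.38 to 0.18 for Gjb6, -0.10 to 0.75 for P2ry13, -0.44 to 1.08 for C1qc, -0.00084 to 0.17 for Clic6, -0.57 to 0.042 for Egr4, -0.77 to 0.054 for Nr1d1, -1.17 to 0.73 for Hspa1b, -0.032 to 0.91 for Rps25, -0.090 to 0.67 for Slc18a3, -0.072 to 0.59 for Drd1, -0.32 to 0.012 for Drd2, -0.60 to 0.73 for Fos, -0.88 to 0.68 for Fosb, -0.088 to 0.27 for S100a10, -0.077 to 0.32 for Cartpt, -0.49 to 0.13 for Penk, -0.30 to 0.069 for Ppp1r1b, -0.67 to 0.41 for Slc1a2, -0.47 to 0.99 for Cx3cr1, -0.56 to 0.72 for Egr1 and -0.15 to 0.29 for Hbb-bt.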

Other observations

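Among the genes with the smallest p over the whole table, beside Defb33 and Hbb-bs, 2 X-linked genes were higher in all 6 cocaine-taking libraries: Gabre, the epsilon subunit of the GABA-A receptor, had a median of 7.94 CPM in cocaine-taking libraries, against 6.00, 3.63 and 3.33 CPM in drug-naive libraries (log2 fold change 0.91, SE 0.241, unadjusted p = 0.00188, edgeR), at 0.710 times background. Tbc1d25, a regulator of autophagy, stood at 0.87 (SE 0.228) and 1.36 times. On the lower side, Ugt2b1, a glucuronidation enzyme of liver, had a median of 5.30 CPM in cocaine-taking libraries, against 7.60, 11.8 and 8.61 CPM in drug-naive libraries (log2 fold change -0.73, SE 0.213), and Nat3, an N-acetyltransferase gene, stood at -0.79 (SE 0.244). All 4 had a Benjamini-Hochberg adjusted p of 1.00 in edgeR. Ugt8a, the enzyme that makes the myelin lipid galactosylceramide, had the widest split among the named oligodendrocyte genes. RES stood at -0.14 (SE 0.512) and SUS at 1.37 (SE 0.500) against the same drug-naive libraries. Its difference of SUS from RES was 1.51 (unadjusted p = 0.00893, edgeR adjusted p = 0.870). SUS 1 to 3 held 69.1, 12.7 and 29.0 CPM, against 15.1, 13.5 and 10.5 CPM in RES 1 to 3 and 19.2, 18.4 and 6.20 CPM in drug-naive libraries. SUS 1 was thus far above the rest, and SUS 2 lay inside the RES range.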
